A study of Mus musculus with 7 samples.

Results

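The control culture of a chemical reprogramming experiment was described here from its 2 RNA-seq libraries, DMSO replicates 1 and 2. A gene was taken as expressed when its level was at least 1 TPM in both libraries, which 13047 of the 53715 genes in the authors' table met. TPM is a transcript level corrected for length and scaled to the library's total. The series holds 7 samples. The DMSO libraries are its 2 solvent controls for RNA, and the other samples were not analysed here.

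The cells were mouse embryonic fibroblasts of embryonic day 13.5 from OG2 mice, labelled CBA-Tg(Pou5f1-EGFP)2Mnn/J, which carry a reporter of green fluorescent protein driven by the Pou5f1 (Oct4) gene. They were seeded at passage 3, with 400000 cells on a plate, and moved a day later to the medium called Stage 1, renewed every 4 days over 12 days. Both libraries therefore share every agent of that medium, and the agent that sets the group apart is DMSO, the solvent. The medium was based on DMEM with non-essential amino acids, antibiotics and β-mercaptoethanol, and held 10% KSR (a serum replacement), 10% FBS (fetal bovine serum) and 20 ng/ml bFGF, a fibroblast growth factor. Its small molecules were 0.5 mM VPA, an inhibitor of histone deacetylases, 20 µM CHIR99021, an inhibitor of the kinase GSK3 that raises Wnt signalling, and 10 µM 616452, an inhibitor of the type I TGF-beta receptor. It also held 5 µM Parnate, which blocks the histone demethylase LSD1 and monoamine oxidases, 50 µM Forskolin, which raises cyclic AMP, 0.5 µM AM580, an agonist of retinoic acid receptors, 5 µM EPZ004777, an inhibitor of the histone methyltransferase DOT1L, and 250 µM vitamin C. The labels call the cells intermediates on the way to pluripotency. They do not name the day of RNA harvest, or say whether the libraries came from separate cultures, so differences between the libraries may be technical. No untreated or starting culture is among the libraries used, so a level here is a level in this medium and not a response to it.

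Embryonic fibroblasts are mesenchymal cells that secrete collagen and other matrix proteins, contract through actin and myosin, and keep a record of body position in their Hox genes. In chemical reprogramming they pass through an early phase in which small molecules loosen the fibroblast programme before genes of pluripotency are switched on. TPM divides reads by transcript length and scales each library to the same total, so levels can be set against each other between genes. A share of TPM estimates a share of transcripts and not of reads. This is least sure for very short genes, such as the mitochondrial tRNA genes, where division by a small length weighs most. Values are given below for replicate 1 and then replicate 2, n = 2 throughout, and no test was possible within a single group. In these bulk samples, fewer cells of a type and less RNA per cell cannot be told apart.

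Of the 20927 genes of the table matched to a protein-coding entry in RefSeq, 11403 (54.5%) were expressed, the share beside which the counts of expressed list members below are to be read. The median of the expressed genes was a mean level of 12.4 TPM, and the middle 50% ran from 4.48 to 35.9 TPM. The expressed genes held 99.5% and 99.4% of all TPM. Another 533 genes reached 1 TPM in replicate 1 alone and 490 in replicate 2 alone, most of them near the limit, with a median of 1.30 TPM in the library that passed. Just inside the limit, 206 expressed genes had a lower value under 1.1 TPM, and just outside it 262 genes had a lower value from 0.9 to under 1 TPM.

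Transcripts were concentrated in few genes. The 10 most abundant genes held 13.6% and 16.2% of TPM, the top 100 held 39.1% and 44.5%, and the top 1000 held 72.2% and 75.3%. The 37 mitochondrially encoded genes took 10.5% and 14.2% of TPM, led by mt-Co1, a subunit of cytochrome oxidase, at 20924 and 25918 TPM. The 92 genes of cytosolic ribosomal proteins took 14.6% and 15.9%, and genes with predicted or pseudogene symbols took 15% and 17.5%. The classes were set mostly by symbol, and the predicted Gm29216, Gm28661 and Gm10925 stood at ranks 3, 4 and 5 of all genes. Whether predicted rows took up reads of mitochondrial or ribosomal protein genes was not tested, so the split between these classes is uncertain. All other genes held 59.9% and 52.4%. Replicate 2 therefore had the larger share in each of the first 3 classes and the smaller share in the remainder, and every other TPM value is a share of a total that these classes partly fill.

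Outside those classes the most abundant transcript was Crabp1, a cytosolic protein that binds retinoic acid (chromosome 9, 54764748 to 54773110 in GRCm38). It stood at 20447 and 13859.8 TPM, 2.04% and 1.39% of all transcripts, and ranked first of its class in both libraries. Lgals1, the secreted lectin galectin-1, was second in both at 11713 and 8993 TPM. Each was higher in replicate 1, yet neither library brought Lgals1 up to the lower Crabp1 value. The next places were held by genes of iron storage and translation. Ftl1 and Fth1, the light and heavy chains of ferritin, stood at 5609 and 4683 TPM and 3646 and 2661 TPM. Eef1a1, a translation elongation factor, stood at 5290.5 and 4792 TPM and Tpt1, a translationally controlled tumour protein, at 4191 and 4488 TPM. Tmsb10, an actin-monomer binding thymosin, reached 1937 and 3135 TPM and was higher in replicate 2.

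The lower part of the 30 most abundant genes held lysosomal, secreted and calcium-binding products. Sparc, a collagen-binding matrix glycoprotein, stood at 2641 and 1970.0 TPM. The lysosomal cathepsins Ctsb, Ctsd and Ctsl stood at 2529.7 and 1889 TPM, 2480.5 and 1818 TPM and 1959.9 and 1791 TPM, and the lysosomal membrane proteins Cd63 and Laptm4a at 2069 and 1609 TPM and 1831 and 1759 TPM. Mt1, a metallothionein, reached 1760.1 and 2128 TPM, the selenoprotein Selenow 2553 and 1833 TPM and the respiratory chain subunit Cox6a1 2340.3 and 2056 TPM. Pla2g7, a secreted phospholipase that degrades platelet-activating factor, stood at 1303 and 1221 TPM. S100g, a calcium-binding protein, changed place most among the 30, at 817 and 2695 TPM, place 70 of its class in replicate 1 and place 7 in replicate 2. Others moved too, such as Tmsb4x at places 51 and 22 and Pkm at places 17 and 46. Of the 29 neighbouring pairs in the order of these 30 genes, 25 had ranges that overlapped, so the order beyond the first places does not exceed the spread between the libraries.

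**Figure D1:**
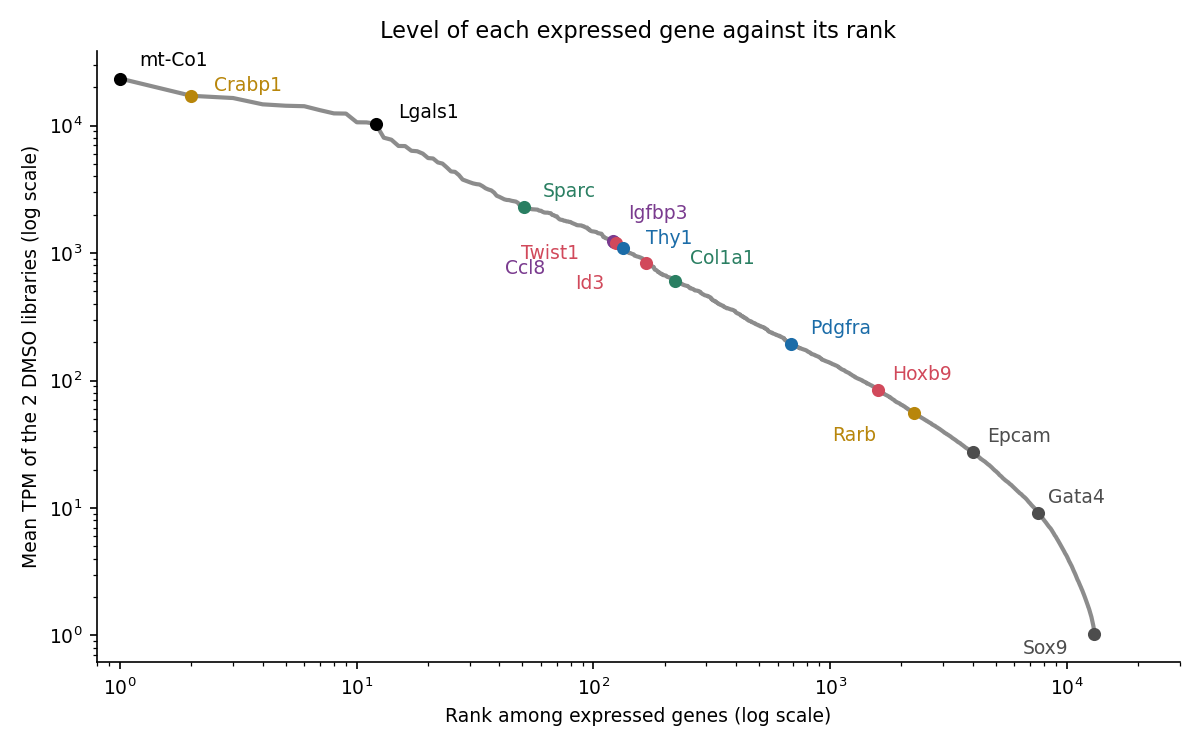
Mean TPM of the 2 DMSO libraries (vertical, log scale) against rank (horizontal, log scale) for the 13047 expressed genes, with named genes as points. Crabp1 lies just below mt-Co1 at the top, and the fibroblast and secreted genes Twist1, Thy1, Igfbp3 and Ccl8 lie close together. Gata4 lies somewhat below the median level of the expressed genes, and Sox9 lies at the low end.

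Genes that make and remodel the matrix were broadly expressed and took 3.06% and 2.32% of TPM over all matrix lists. Of their 234 members 167 were expressed, with a median of 27.3 TPM beside 12.4 TPM over all expressed genes. These lists hold 5 cathepsins that are also on the lysosome list, and without them the share was 2.35% and 1.76% of TPM and the median 24.8 TPM. Among the 44 collagen genes 26 (59.1%) were expressed, with a median of 13.5 TPM. Col1a1 and Col1a2, the chains of type I collagen, led with Col18a1, which gives rise to endostatin, in between. Col1a1 stood at 751 and 461 TPM, Col18a1 at 508 and 285 TPM and Col1a2 at 359.5 and 319.6 TPM. Col3a1, the fibrillar collagen of soft tissue, stood at 215 and 252 TPM and Col12a1, which binds to collagen fibrils, at 166 and 182 TPM. The cartilage collagen Col2a1 was near 0 at 0.312 and 0.093 TPM.

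Of basement membrane genes 17 of 23 (73.9%) were expressed, with a median of 29.7 TPM. Col18a1, given above, is also the highest member of this list. Nid1, which links laminin to collagen IV, stood at 229 and 194 TPM, the laminin chain Lamb1 at 92.7 and 79.4 TPM and the collagen IV chain Col4a1 at 91 and 63 TPM. Among matrix glycoproteins 43 of 53 were expressed. After Sparc came Ecm1 at 553 and 492 TPM, the elastic fibre protein Efemp2 (fibulin-4) at 348 and 235 TPM and the thrombospondin Thbs2 at 293 and 263 TPM. Fn1, the fibronectin gene and a classic fibroblast product, was comparatively low at 26.6 and 24.8 TPM, and Ccn2, a connective tissue growth factor, at 15.8 and 11.1 TPM. Among 31 proteoglycan genes 20 were expressed, led by the cell-surface heparan sulphate carriers Gpc1 at 421 and 288 TPM and Sdc1 at 330.2 and 211 TPM and by the collagen-binding Dcn (decorin) at 206 and 250.4 TPM.

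The enzymes that fold and crosslink collagen were expressed in 25 of 28 cases. Ppib and P4hb, which act on collagen in the endoplasmic reticulum, stood at 899.5 and 752 TPM and 742 and 638 TPM. Serpinh1, the collagen chaperone HSP47, differed between the libraries at 768 and 279 TPM. Of matrix proteases 34 of 54 were expressed. Besides the cathepsins these were led by the secreted serine protease Htra1 at 2036 and 1268 TPM, the gelatinase Mmp2 at 1283 and 871 TPM and the membrane protease Mmp14, which activates it, at 615 and 405 TPM. Their inhibitors were abundant too, with 9 of 12 expressed. The cysteine protease inhibitor Cst3 stood at 1226 and 995 TPM, Serpine2 (protease nexin-1) at 961 and 773 TPM, Timp2 at 749 and 629.5 TPM and Serpinf1, which encodes pigment epithelium-derived factor, at 682 and 434 TPM.

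Markers of fibroblasts and mesenchyme were nearly all expressed, 23 of the 24 with a row in the table, with a median of 108 TPM among those expressed. The surface glycoprotein Thy1 stood at 1145 and 1065 TPM, the platelet-derived growth factor receptor Pdgfra at 195 and 194 TPM, the mesenchymal cadherin Cdh11 at 272 and 309 TPM and the intermediate filament vimentin (Vim) at 228 and 162 TPM. Pi16, a marker of an adventitial fibroblast state, was the 1 member below the limit. The labelled cell type, a fibroblast, thus carried its defining transcripts in both libraries. Contractile genes were expressed in 16 of 17 cases, with a median of 221 TPM. Acta2, smooth muscle actin, stood at 606 and 448 TPM, its partner Tagln (transgelin) at 563 and 386 TPM, the myosin light chain Myl9 at 621 and 489 TPM and tropomyosin Tpm1 at 744 and 705 TPM, while the smooth muscle myosin heavy chain Myh11 was at 4.85 and 6.29 TPM.

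Genes of pluripotency were mostly silent at this limit, with 7 of 30 expressed. The 7 were Trim28 at 91.1 and 62 TPM, Klf4 at 24.7 and 19 TPM, Tbx3 at 19.1 and 18.2 TPM, Klf5 at 9.73 and 13.9 TPM, Lefty1 at 9.36 and 6.15 TPM, Klf2 at 6.01 and 2.06 TPM and Dnmt3l at 3.47 and 1.99 TPM, and several of these, such as Trim28 and Klf4, are known in many tissues. The core factors were lower. Pou5f1 stood at 0.867 and 0.178 TPM, Sox2 at 1.72 and 0.513 TPM, Sall4 at 0.685 and 0.982 TPM and Nanog at 0.0762 and 0.0739 TPM. Of 18 genes of the 2-cell-like state 0 were expressed and 13 were listed at 0 in both libraries. Of 15 germ cell genes only Tfap2c, a factor of germ cell and trophoblast lineages, passed, at 3.3 and 2.13 TPM.

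Extraembryonic endoderm is a lineage whose genes are known from an intermediate state of chemical reprogramming. Of its 29 list members 18 were expressed, but the highest ones, Sparc, Pdgfra and the basement membrane chains, are shared with fibroblasts. Among factors more particular to endoderm, Sox17 stood at 15.5 and 17.2 TPM, Gata4 at 6.44 and 11.9 TPM, Sox7 at 6.89 and 8.19 TPM, Gata6 at 4.89 and 3.96 TPM and Foxa2 at 1.62 and 2.21 TPM. Cited1, a transcriptional coactivator, reached 61.2 and 56.7 TPM. Some genes of more mature endoderm were below the limit. The secreted product Afp stood at 0.488 and 0.61 TPM, the transcription factor Hnf4a at 0.0595 and 0.556 TPM and the uptake receptor Cubn at 0.281 and 0.383 TPM.

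Epithelial genes were present at low levels, with 24 of 32 expressed and a median of 6.27 TPM. Krt19, a keratin of simple epithelia that is also a mesothelial marker, was highest at 74.7 and 47.4 TPM. The protease inhibitor Spint2 followed at 53.3 and 48.5 TPM, the adhesion molecule Epcam at 21.6 and 33.1 TPM and the keratin Krt8 at 25.2 and 30.8 TPM. E-cadherin (Cdh1) stood at 1.85 and 3.03 TPM, and the epithelial regulators Grhl2 and Esrp1 stayed below the limit at 0.208 and 0.277 TPM and 0.416 and 0.934 TPM. Of the list of stratified epithelium 10 of 23 passed, led by the cornified envelope gene Sprr1a at 25.8 and 19 TPM, while the basal keratins Krt5 and Krt14 stood at 0 and 0.168 TPM and 0.181 and 0.221 TPM. Mesothelial genes passed in 5 of 10 cases, with Msln (mesothelin) at 26.3 and 17.6 TPM and Wt1 at 0.568 and 0.361 TPM.

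Markers of other cells that an embryo fibroblast preparation can hold were low with single exceptions. Of 25 macrophage genes 15 (60.0%) were expressed, with a median of 7.20 TPM. Lyz2, the lysozyme of myeloid cells, stood at 207 and 179 TPM, but the next member, the complement chain C1qb, was at 16.4 and 9.52 TPM, and the leukocyte antigens Ptprc (CD45) and Itgam were at 0.0829 and 0.142 TPM and 0.256 and 0.156 TPM. The whole list summed to 0.0311% and 0.0260% of TPM. Among other blood cell genes 5 of 29 passed, led by the platelet chemokine Pf4 at 43.6 and 49.7 TPM. Of 18 endothelial genes 8 passed, with the receptor Kdr at 8.27 and 8.66 TPM and the defining Cdh5 and Pecam1 at 0.925 and 0.709 TPM and 0.355 and 0.115 TPM.

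Among neural and glial genes 14 of 26 (53.8%) were expressed, close to the 54.5% of all protein-coding genes, with a median of 10.2 TPM. Gap43, a growth cone protein, was far above the others at 189.7 and 164 TPM, the neuronal tubulin Tubb3 stood at 42.6 and 27 TPM, and Map2 and Sox1 were near 0 at 0.199 and 0.293 TPM and 0 and 0.0271 TPM. Of 24 cartilage and bone genes 7 passed, with Spp1 (osteopontin) at 288 and 162 TPM and the chondrogenic factor Sox9 at 1 and 1.05 TPM. Adipocyte genes passed in 5 of 15 cases with none above 10 TPM, the adipogenic receptor Pparg being highest at 6.41 and 5.24 TPM. Striated muscle genes passed in 12 of 29 cases, again none above 10 TPM on average, including the myogenic factor Myod1 at 6.23 and 3.32 TPM. Pericyte and mural genes passed in 6 of 11 cases, led by the growth factor receptor Pdgfrb at 21.8 and 15.8 TPM.

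**Figure D2:**
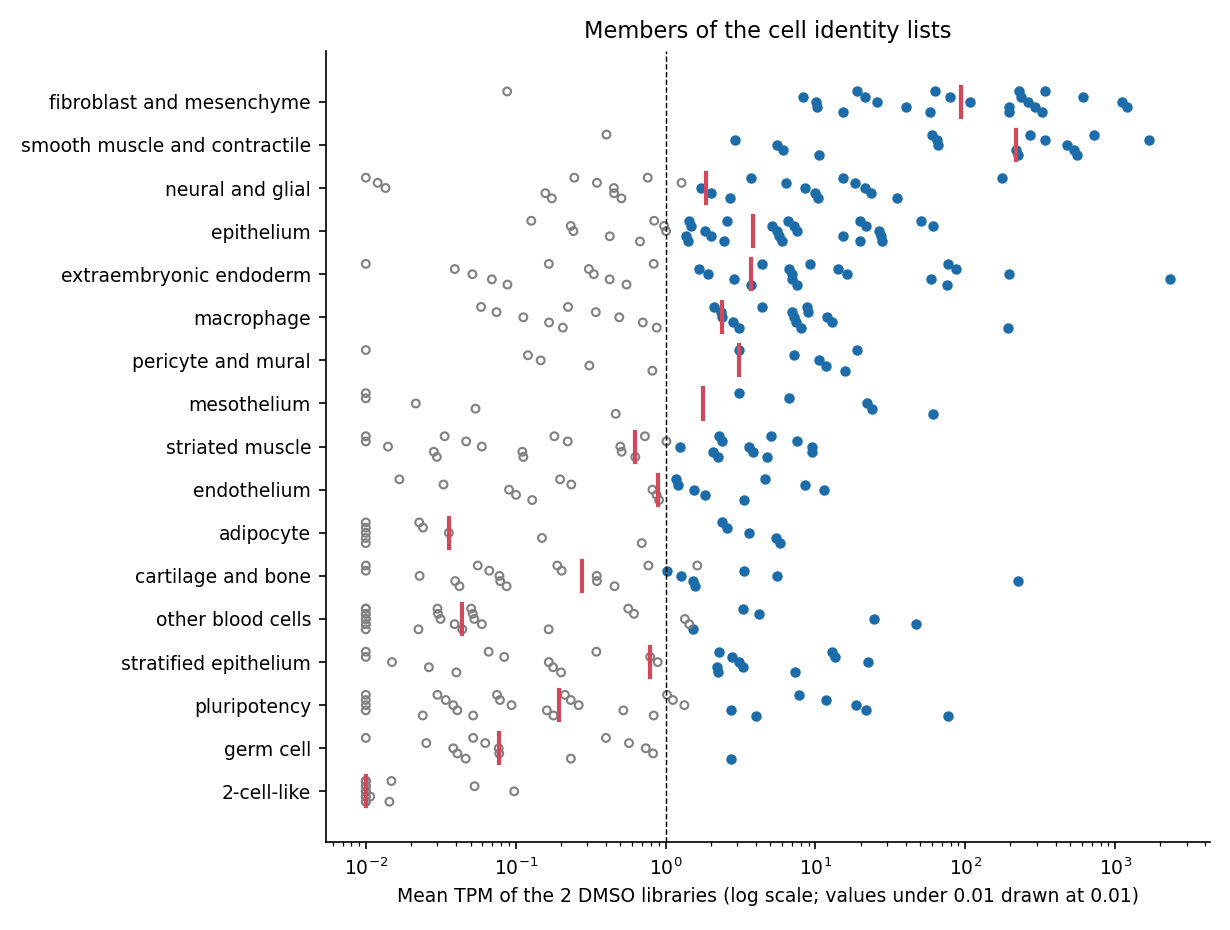
Mean TPM of the 2 DMSO libraries (horizontal, log scale) for each member of the cell identity lists, with expressed members filled, members under 1 TPM in at least 1 library open, and the median over all members of a list as a red bar. The medians of the fibroblast and the contractile list lie far to the right of the limit, and those of the pluripotency, germ cell and 2-cell-like lists to the left.

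Transcription factors and the cofactors listed with them held 1.33% and 1.04% of TPM. Of 515 members 355 were expressed, with a median of 9.18 TPM. Twist1, a basic helix-loop-helix factor of mesenchyme, was the most abundant at 1484 and 914 TPM, and its relative Twist2 stood at 433 and 215 TPM. The Y-box protein Ybx1, which binds DNA and RNA, was second at 1103 and 904 TPM. The Id proteins, which hold helix-loop-helix partners off DNA, were high in both libraries. Id3 stood at 854 and 825 TPM, Id1 at 457 and 473 TPM and Id2 at 97 and 111 TPM. Btf3, a factor tied to nascent chains, stood at 484 and 411 TPM.

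Stress and AP-1 family factors came next. Jund, a member of AP-1, stood at 387 and 165 TPM and Cebpb, a factor of inflammation and fat cell differentiation, at 405.8 and 145 TPM. Both were over 2-fold higher in replicate 1. Nfe2l2 (NRF2), which drives antioxidant genes, stood at 128 and 119 TPM in close accord, and Atf5 at 132 and 83.4 TPM. In contrast the immediate early factor Egr1 was below the limit at 0.646 and 0.757 TPM, and Fos stood at 4.41 and 2.52 TPM. Snai1, a repressor of epithelial genes, stood at 139 and 83.7 TPM, Snai2 at 43.8 and 55.5 TPM and Zeb1 at 22.4 and 32.5 TPM. All of these act against the epithelial state, in contrast to Grhl2 described above.

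Homeobox genes of limb and mesenchyme held 4 of the first 20 places. Prrx2 stood at 282 and 184 TPM, its paralog Prrx1 at 95.6 and 119.7 TPM, the Iroquois factor Irx3 at 198 and 92.3 TPM and the hindlimb factor Pitx1 at 148 and 98.9 TPM. Prrx1 was higher in replicate 2, and the other 3 were higher in replicate 1. Of this list 34 of 68 members (50.0%) were expressed, again beside 54.5% of all protein-coding genes. In the order of the 20 most abundant factors, 15 of 19 neighbouring pairs had overlapping ranges. Csrp2, a LIM protein, Tsc22d1, Zfp36l1, an RNA-binding protein, and Hdgf complete that set at 204 and 229.6 TPM, 201 and 182 TPM, 169 and 172 TPM and 156 and 115 TPM.

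The remaining factor families were each expressed in part, and those of Sox (47.4%), T-box (47.1%) and forkhead genes (52.3%) had no larger share of expressed members than all protein-coding genes (54.5%). Of nuclear receptors 29 of 49 passed, led by the orphan receptor Nr2f6 at 147 and 60.3 TPM, and among the retinoic acid receptors Rarg stood at 60.3 and 42.3 TPM beside Rarb. The basic helix-loop-helix list passed in 43 of 53 cases, the AP-1 and CREB/ATF list in 31 of 38, the stress factors in 18 of 19 and the general factors in 38 of 40. Of Sox genes 9 of 19 passed, with Sox4, a factor of progenitor cells, highest at 60.1 and 58.4 TPM, and of forkhead genes 23 of 44, with the insulin-regulated Foxo4 highest at 36.5 and 50.1 TPM. T-box genes passed in 8 of 17 cases, led by Tbx2 at 39.6 and 18.1 TPM, and Gata genes in 4 of 6, of which none reached a mean of 10 TPM. Klf and Sp genes passed in 18 of 26 cases with Klf3 highest at 27.3 and 27.5 TPM. Among Ets genes, 17 of 25 expressed, the serum response cofactor Elk3 led at 68.3 and 61.6 TPM, and among STAT, IRF and NF-kappaB genes, 17 of 21 expressed, Stat3 led at 45.9 and 43 TPM. Smad, Tead, Tcf/Lef, NFI and Runx genes passed in 30 of 40 cases, with the Hippo pathway factor Tead2 highest at 29.9 and 35.1 TPM. Epithelial-mesenchymal regulators passed in 9 of 16 cases, and immediate early zinc fingers and orphan receptors in 5 of 9, led by Srf, the serum response factor, at 36.3 and 22.3 TPM.

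Hox genes specify position along the body axis, and those of low paralog number act towards the head. Here 33 of 39 were expressed. Hoxb9 was by far the highest at 90.3 and 78.1 TPM, ahead of Hoxd8 at 37.9 and 27.5 TPM, Hoxc6 at 23.5 and 16.9 TPM, Hoxc8 at 16.9 and 21 TPM and Hoxa10 at 21 and 16.8 TPM. The ranges of Hoxb9 did not overlap with any other Hox gene. Paralog groups 5 to 9 summed to 268 and 229 TPM, groups 1 to 4 to 52.6 and 48.5 TPM and groups 10 to 13 to 79.1 and 61.3 TPM. Members of groups 10 to 13 were expressed in 9 of 12 cases, including Hoxd13 at 8.28 and 8.2 TPM. The 6 below the limit were Hoxa2, Hoxa6, Hoxb1, Hoxc11, Hoxc12 and Hoxd12, and Hoxb1, a direct retinoic acid target of the hindbrain, was listed at 0 in both libraries.

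**Figure D3:**
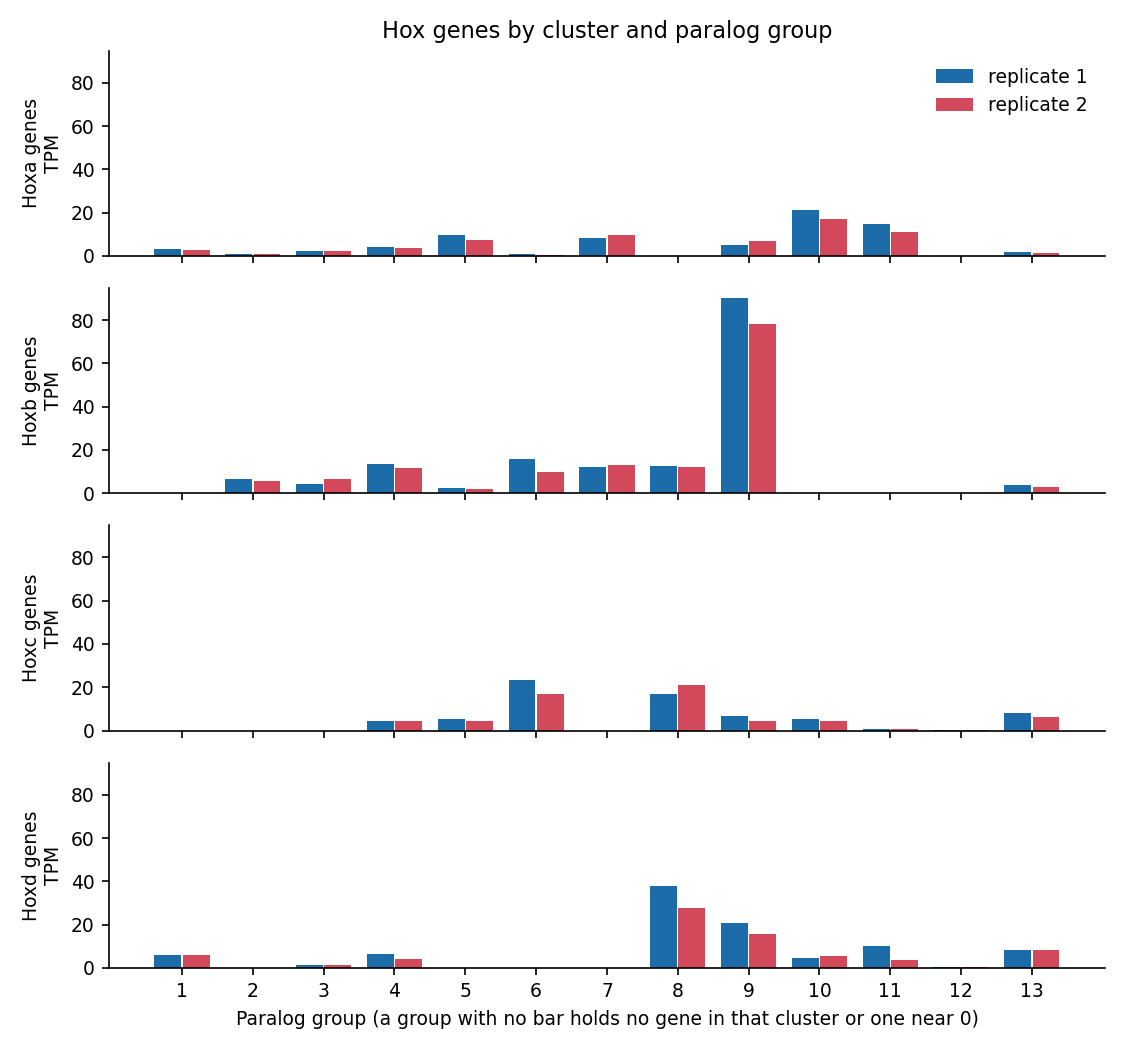
TPM of each Hox gene (vertical, bars from 0) by paralog group (horizontal) in 4 panels, 1 for each cluster, with a bar for each DMSO library. Hoxb9 stands above every other gene, and the bars of the 2 libraries are of similar height for most genes.

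Receptors and other surface proteins held 1.17% and 0.940% of TPM, and 180 of 292 were expressed. Cd63, the immunoglobulin-family protein Bsg (basigin, at 1498 and 1131 TPM) and the tetraspanin Cd81 (at 669 and 526 TPM) were highest. Of 26 integrins 17 passed, and the list was dominated by the beta chains Itgb1 at 331 and 334 TPM and Itgb5 at 289 and 191 TPM, while the highest alpha chain, the fibronectin receptor Itga5, stood at 26.7 and 18.9 TPM. Receptor tyrosine kinases passed in 34 of 56 cases. They were led by Ptk7, a pseudokinase of planar polarity, at 306 and 215 TPM, then Pdgfra, the Wnt coreceptor Ryk at 105 and 91 TPM and Fgfr1, a receptor for the bFGF in the medium, at 122 and 64.1 TPM.

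Receptors of the TGF-beta family passed in 13 of 17 cases. The type II receptor Tgfbr2 stood at 202 and 189 TPM, well above the type I receptor Tgfbr1, the target of 616452, at 7.75 and 10.1 TPM. In the Wnt, Notch and Hedgehog set 19 of 25 passed, led by Gas1, a Hedgehog coreceptor, at 312 and 196 TPM and the Wnt receptor Fzd1 at 179 and 139 TPM. Among receptors for chemokines, lipids and related ligands 19 of 59 passed. The thrombin receptor F2r stood at 216 and 226 TPM, the scavenging chemokine receptor Ackr3 at 175 and 178 TPM, the lysophosphatidic acid receptor Lpar1 at 134 and 142 TPM and the sphingosine phosphate receptor S1pr1 at 131 and 129 TPM, each with close values in both libraries. Cytokine receptors passed in 41 of 63 cases, with Tnfrsf12a, the receptor for TWEAK, highest at 175 and 151 TPM. Uptake receptors passed in 15 of 21 cases, and the highest, Lrp1, was higher in replicate 1 at 261 and 87.9 TPM. Matrix and adhesion receptors passed in 26 of 29 cases, and the hyaluronan receptor Cd44 stood at 6.2 and 7.21 TPM.

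The lists of secreted factors held 1.91% and 1.5% of TPM, with 179 of 343 members (52.2%) expressed. Without the 5 members that are also on matrix lists, of which Htra1 was the highest, they held 1.70% and 1.36%. Among chemokines those that attract monocytes were high. Ccl8 was at 1239.8 and 1236 TPM and thus nearly equal in both libraries, with Ccl7 at 352 and 306 TPM and Ccl2 at 136 and 98 TPM. Of 40 chemokines 21 passed, and Cxcl14 stood at 144 and 166 TPM. Of 47 interleukins, colony-stimulating factors and related ligands only 14 passed, and these included the macrophage migration inhibitory factor Mif at 627 and 477 TPM, the costimulatory ligand Tnfsf9 at 568 and 384 TPM, Csf1 at 63.1 and 44 TPM and Il6 at 5.8 and 8.55 TPM.

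Among growth factor systems, both ligands and binding proteins were high. Igfbp3, a carrier of insulin-like growth factors, stood at 1303 and 1155 TPM, Igfbp6 at 639 and 319.8 TPM and Igfbp7 at 578 and 290.1 TPM, beside the fetal growth factor Igf2 at 685 and 440.3 TPM. Of this list of insulin-like factors, binding proteins and proteases that act on these 10 of 14 passed, and its highest member was Htra1, given above with the matrix proteases. Of other growth factors 37 of 61 passed, led by progranulin (Grn) at 199.7 and 137 TPM and midkine (Mdk), a heparin-binding factor, at 120.4 and 141 TPM, with the neurotrophin Ntf3 at 74.8 and 73.7 TPM. In the TGF-beta family 31 of 45 ligands and antagonists were expressed. The activin chain Inhbb led at 1005 and 573 TPM, followed by the follistatin-like Fstl1 at 533 and 600.4 TPM and the BMP antagonist Nbl1 at 631 and 437 TPM. Wnt ligands and antagonists passed in 24 of 40 cases, with ligands and antagonists among the highest. Wnt4 stood at 728 and 512 TPM and Wnt5a at 261 and 227 TPM, beside the antagonists Sfrp1 at 570.1 and 596 TPM and Notum, which strips Wnt of its lipid, at 351 and 189 TPM.

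Of hormone and neuropeptide genes 27 of 38 passed, with a median of 6.86 TPM, below the 12.4 TPM over all expressed genes, and 3 reached a mean of 100 TPM. The neuropeptide precursors Sst (somatostatin) and Penk (proenkephalin) stood at 271 and 377 TPM and 344 and 291 TPM, and Adm (adrenomedullin) at 157 and 102 TPM. The proliferins Prl2c2 and Prl2c3, prolactin relatives known from placenta and growing fibroblasts, stood at 913 and 658 TPM and 486 and 275 TPM, but these near-identical genes share reads and their split is uncertain. They were the only 2 of 26 members of the prolactin family to pass. Of acute-phase and complement genes 13 of 32 passed, with clusterin (Clu) at 141 and 133 TPM and Saa3 at 39 and 38.7 TPM.

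**Figure D4:**
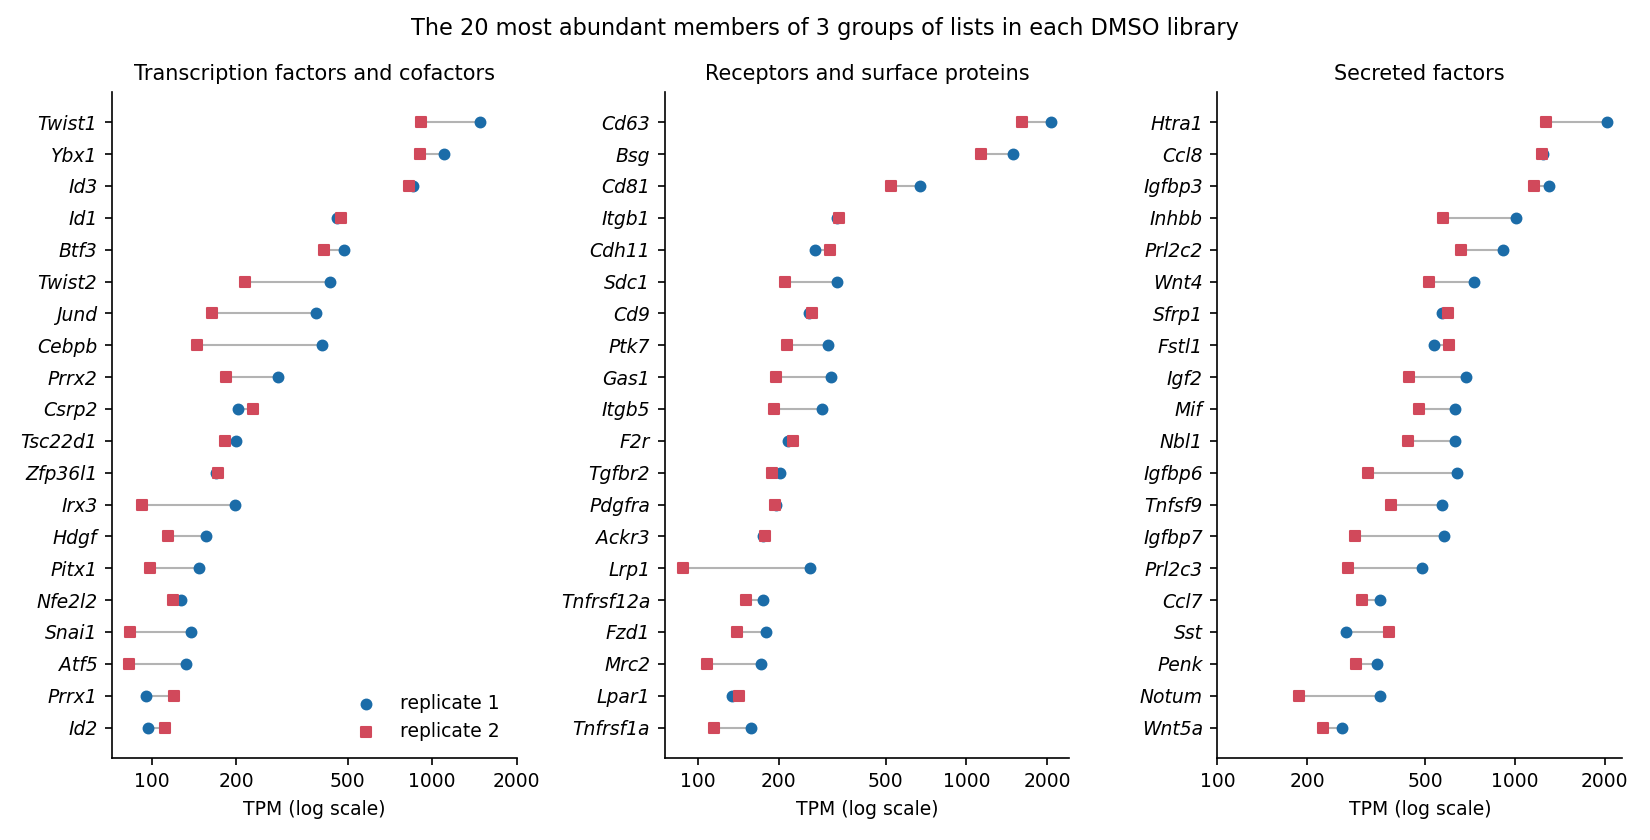
TPM (horizontal, log scale) of the 20 most abundant transcription factors and cofactors, receptors and surface proteins, and secreted factors, with replicate 1 as circles and replicate 2 as squares. Jund, Cebpb, Irx3, Twist2 and Lrp1 lie over 2-fold apart, while Ccl8, Pdgfra, F2r and Zfp36l1 lie nearly on top of each other.

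Genes known to answer the pathways that the medium acts on were expressed in most cases, although no culture without the medium was available. Of 17 retinoic acid target genes 15 passed, with a median of 53.2 TPM. After Crabp1 these were led by Dhrs3, a retinal reductase, at 401 and 274 TPM, the retinoic acid hydroxylase Cyp26b1 at 325 and 273 TPM, Crabp2, which carries retinoic acid to the nucleus, at 315 and 274 TPM and the retinol uptake receptor Stra6 at 270.3 and 235 TPM. The receptor gene Rarb stood at 56.9 and 55 TPM and Cyp26a1, the inducible hydroxylase, at 41.6 and 64.7 TPM. Hoxb1 and Stra8, a meiosis gene, were at 0.

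Of 21 Wnt target genes 19 passed, with a median of 12.2 TPM, close to that over all expressed genes. The feedback inhibitors Apcdd1, Notum and Nkd1 were highest, Apcdd1 at 349 and 275 TPM and Nkd1 at 310.4 and 206 TPM, and the general target Axin2 stood at 60.3 and 57.5 TPM. Among 23 cyclic AMP target genes 20 passed with a median of 10.6 TPM. Crispld2, a secreted protein, stood at 105 and 98.7 TPM, the phosphatase Dusp1 at 68.4 and 44.4 TPM and the growth factor Areg (amphiregulin) at 51.9 and 33.5 TPM. All 18 TGF-beta family targets passed with a median of 44.9 TPM, but the highest, Id3, is known as a target of BMP signals, and the matrix genes Fn1 and Ccn2 lay below that median. Of the direct protein targets of the medium's compounds 20 of 29 were expressed. The deacetylases Hdac1 and Hdac2 stood at 94.2 and 88.8 TPM and 90.9 and 89.4 TPM, the kinases Gsk3a and Gsk3b at 79.8 and 61.6 TPM and 13.2 and 13.9 TPM, and the demethylase Kdm1a at 21.8 and 16.5 TPM.

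Promoter sequence is shown for genes of these pathways because some carry the textbook response elements within the bases just before their start. The windows come from RefSeq (GRCm38.p6), the build of the files, and span 250 bases before to 50 after the first listed start of each gene. A retinoic acid response element of the DR5 kind is a direct repeat of the receptor's binding site with 5 bases in between. On either strand it was found in 26 of 27025 windows (0.0962%). Among the 9199 expressed protein-coding genes with a window it was in 4 (0.0435%), a smaller share than over all windows. Those 4 were Rarb, Cyp26a1, the chemokine Ppbp at 32.9 and 28.2 TPM and Syndig1, a synapse protein, at 12.8 and 12.6 TPM. The 100 bases before the start are printed 5′ to 3′ on the gene's strand, for Rarb (chr14:16575477-16575576, minus strand) and Cyp26a1 (chr19:37697708-37697807, plus strand), with the element in capitals. For comparison the same stretch of Crabp1 (chr9:54764648-54764747, plus strand) is given, in whose window no such element was found and whose window is 65.0% G and C.
Rarb: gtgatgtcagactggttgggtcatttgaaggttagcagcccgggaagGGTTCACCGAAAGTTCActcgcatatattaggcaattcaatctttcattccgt
Cyp26a1: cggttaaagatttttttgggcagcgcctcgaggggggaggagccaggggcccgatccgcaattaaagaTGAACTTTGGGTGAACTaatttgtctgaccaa
Crabp1: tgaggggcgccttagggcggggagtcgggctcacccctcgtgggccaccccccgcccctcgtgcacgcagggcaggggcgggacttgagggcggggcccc

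The element of Rarb begins 53 bases before the start and reads on the gene's strand, and that of Cyp26a1 begins 32 bases before it and reads on the other strand. Windows were found for 9 of the 15 expressed retinoic acid targets (60.0%), so a share over that list is void.

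The cyclic AMP response element TGACGTCA, which reads the same on both strands, was in 1.88% of all 27025 windows and in 311 (3.38%) of those of expressed protein-coding genes. Among hormone and neuropeptide genes it was in 3 of the 23 expressed members with a window, Sst, Scg2 and Chgb, the last pair at 3.2 and 3.46 TPM and 2.58 and 3.23 TPM. Among cyclic AMP targets Areg and Dusp1 held it, but only 15 of the 20 expressed had a window (75%), so the share over that list is void too. The stretches of Sst (chr16:23890845-23890944, minus strand), Areg (chr5:91139499-91139598, plus strand) and Dusp1 (chr17:26508556-26508655, minus strand, from 183 bases before its start) are printed with the element in capitals. The stretch of Ccl8 (chr11:82115085-82115184, plus strand) is given for its TATA box, in capitals, which begins 32 bases before the start. The stretch of Areg holds the letters TATAA as well, in small letters, since only the motif named for a gene is in capitals.
Sst: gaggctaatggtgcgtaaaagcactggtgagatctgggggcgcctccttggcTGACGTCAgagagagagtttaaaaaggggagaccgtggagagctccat
Areg: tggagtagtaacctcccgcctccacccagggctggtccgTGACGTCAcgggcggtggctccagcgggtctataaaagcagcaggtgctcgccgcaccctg
Dusp1: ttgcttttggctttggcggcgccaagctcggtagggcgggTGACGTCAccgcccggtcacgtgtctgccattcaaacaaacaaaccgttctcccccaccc
Ccl8: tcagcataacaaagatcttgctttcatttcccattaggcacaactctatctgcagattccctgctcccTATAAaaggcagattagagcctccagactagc

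TATAA on the gene's strand from 45 to 15 bases before the start was in 4.23% of all windows and in 2.24% of those of expressed protein-coding genes. Among the 200 most abundant expressed genes 160 had a window and 7 of these (4.38%) held it. Windows of expressed genes were richer in CpG than all windows, with a median ratio of observed to expected CpG of 0.776 against 0.389, and that of Ccl8 was 0.137. A match is a run of letters, and neither the start used in these cells nor binding of a factor was measured.

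Genes of protein synthesis, energy and cell structure were expressed almost without exception. All 29 translation factors, 23 glycolysis genes, 22 lysosomal genes and 41 actin cytoskeleton genes passed, as did 68 of 72 nuclear genes of the respiratory chain. Pkm, the last enzyme of glycolysis, stood at 1900.5 and 959 TPM, and glycolysis as a list held 0.55% and 0.346% of TPM. The list of chaperones passed in 25 of 25 cases, led by calreticulin (Calr) at 1167 and 1003 TPM, and all 29 iron, redox and metallothionein genes passed. Of 22 S100 and galectin genes 16 passed, led by Lgals1 and S100a6 at 1327 and 1744 TPM.

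Inhibitors of the cell cycle and p53 targets were abundant and genes of division were low. All 28 members of the arrest and p53 list passed, with a median of 76.7 TPM. Cdkn1a (p21), which blocks cyclin-dependent kinases, stood at 994 and 852 TPM, Cdkn2a, the gene of p16 and Arf, at 703 and 569 TPM, the p53 target Phlda3 at 817 and 556 TPM and the death effector Bax at 834 and 448 TPM. Of 40 replication and mitosis genes 35 passed, with a median of 4.37 TPM. Pcna, the sliding clamp of replication, was highest at 68.9 and 80.7 TPM, while the proliferation marker Mki67 stood at 0.321 and 0.776 TPM. Interferon-stimulated genes passed in 23 of 26 cases, but the high ones were Ifitm2 at 1022 and 874 TPM, Ifitm3 at 486 and 459 TPM, B2m at 327 and 410.3 TPM and Bst2 at 293 and 295 TPM, with Isg15 at 9.68 and 10.1 TPM.

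The title of the study names Syk, calcineurin, NFAT and hydrogen sulphide, and in the control culture the genes behind these names ranged widely. Syk, the kinase, stood at 0.958 and 1.23 TPM and thus missed the limit in replicate 1. The calcineurin chains were better expressed, with the regulatory Ppp3r1 at 78.1 and 87.4 TPM and the catalytic Ppp3ca and Ppp3cb at 41.8 and 38.2 TPM and 35 and 32 TPM. Rcan1, a calcineurin inhibitor, stood at 160.3 and 128 TPM. Among NFAT genes Nfatc4 was highest at 30.8 and 20.7 TPM, then Nfatc3 at 8.5 and 11 TPM, Nfatc1 at 2.41 and 2.98 TPM and Nfatc2 below the limit at 0.383 and 0.425 TPM. Of the enzymes that make hydrogen sulphide, Mpst stood at 37.6 and 31.9 TPM, with Cbs at 2.82 and 1.57 TPM and Cth at 1.97 and 2.19 TPM. The ranges of the 4 NFAT genes did not overlap.

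The 2 libraries gave close values for most genes. Across the 13047 expressed genes, which are not independent replicates, Pearson's r of log2(TPM + 1) was 0.979 and Spearman's rho of TPM 0.974, and 95.6% of genes lay within 2-fold. The difference of log2(TPM + 1), replicate 2 minus replicate 1, had an SD of 0.41 and a median of −0.10. Of the 1000 most abundant genes of each library 889 were shared. Over 2-fold apart were 580 genes, 4.45% of those compared, with 206 (1.58%) higher and 374 (2.87%) lower in replicate 2. After the median difference was set to 0 these were 293 higher and 268 lower. When TPM was rescaled without mitochondrially encoded, ribosomal and predicted genes the median became 0.06, so the sign of the median difference changed with the scaling.

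How agreement varied with level depended on the measure. The SD of the log2(TPM + 1) difference was 0.37 from 1 to 5 TPM and 0.41 from 10 to 50 TPM. It was 0.50 among the 143 genes of at least 1000 TPM. The added 1 shrinks differences most at low levels. Within 2-fold lay 94.0% of genes of 1 to 5 TPM, 95.3% of 5 to 10 TPM and 96.4% of 10 to 50 TPM. The share was 97.1% from 50 to 100 TPM, 96.0% from 100 to 1000 TPM and 93.7% at 1000 TPM or more. By class the mitochondrially encoded genes were least alike, with 67.6% of 34 within 2-fold, and predicted symbols came next with 88.2% of 1536. The mitochondrial class holds tRNA genes as well as protein-coding ones. The tRNA gene mt-Tc stood at 874 and 2325 TPM and the protein-coding mt-Atp8 at 4373 and 9486 TPM. The abundant mt-Co1, mt-Co2 and mt-Cytb lay within 2-fold. Beside 4.45% of all expressed genes, 4 of 167 expressed matrix genes (2.40%) were over 2-fold apart, as were 8 of 180 receptors (4.44%), 6 of 179 secreted factors (3.35%), 13 of 172 identity genes (7.56%) and 25 of 355 transcription factors (7.04%). Of those 25 factors 23 were lower in replicate 2, and with the median difference set to 0 this was 15 lower and 2 higher.

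Single genes stood far from this agreement. Pcdhga9, a clustered protocadherin that shares exons with its neighbours, stood at 110.0 and 1.39 TPM, the widest gap among expressed genes of at least 10 TPM with a named symbol. Bola1, Lrrc8d and Fam107b stood at 33 and 2.63 TPM, 33.2 and 4.72 TPM and 50 and 8.03 TPM. Kxd1, a lysosome-positioning protein, was abundant in both and still far apart at 462 and 105 TPM. In the other direction Emp1, a membrane protein, stood at 6.48 and 43.6 TPM, the signal recognition particle RNAs Rn7s1 and Rn7s2 at 6.2 and 25.3 TPM and 5.24 and 24.6 TPM, the splicing cyclophilin Ppih at 6.55 and 25.9 TPM, and S100g, named above, was the most abundant of this kind outside mitochondrially encoded, ribosomal and predicted genes. With 1 pair of values each, none of these gaps has a replicate check.

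**Figure D5:**
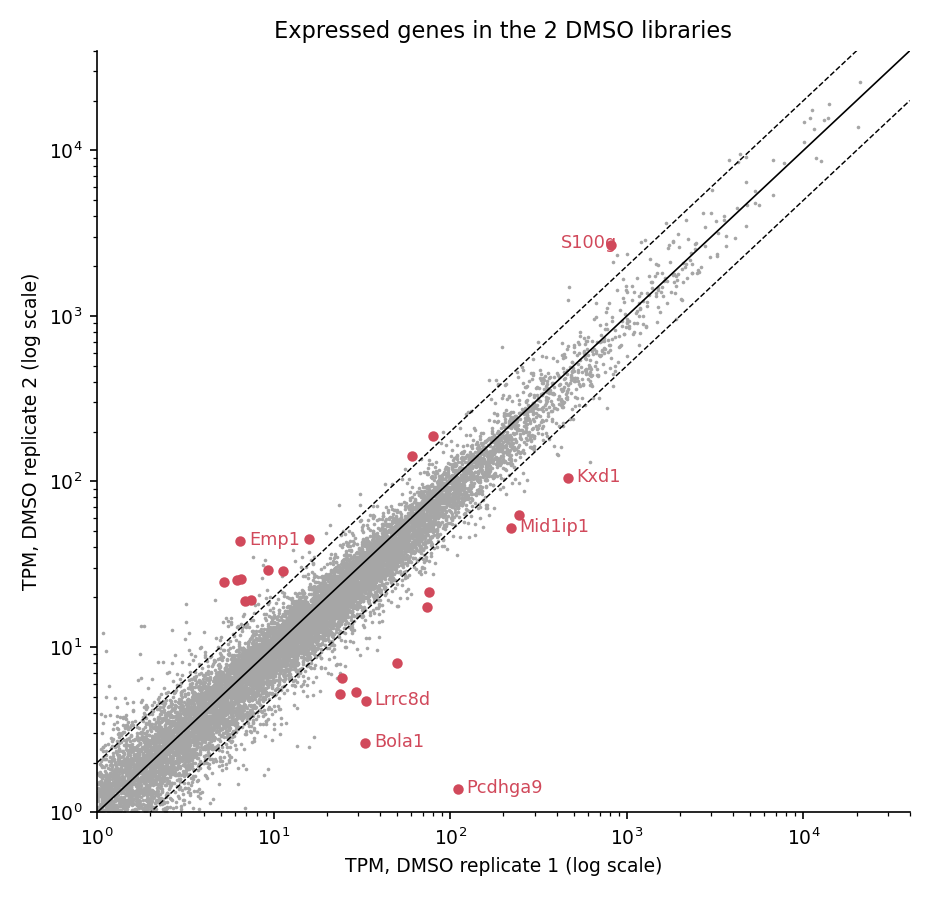
TPM of each expressed gene in DMSO replicate 1 (horizontal, log scale) and replicate 2 (vertical, log scale), with the line of equality and dashed lines at 2-fold, and the 12 named genes farthest apart in each direction in red. Most points lie between the dashed lines, and Pcdhga9 lies farthest from them.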

How the data were processed

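RNA-seq was measured in 4 libraries of the series, and only the 2 of the DMSO group were used. The authors deposited TPM per gene, as a table and as 1 file per library, and the values of the 2 single files equalled the table in all 53715 genes. Per the labels' protocols, each library started from 3 µg of total RNA and an unstranded NEBNext Ultra preparation. HISAT2 2.1.0, StringTie 2.0 and the build mm10 are named, per the submitters' processing notes. The annotation is not given in the sources used here. Values of near-identical or overlapping genes, antisense ones included, are uncertain, and an exact 0 may be a failed estimate. TPM sums to a fixed total, so the depth is unknown and no interval or floor from counts can be given.

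Biotypes, gene coordinates and promoter windows came from RefSeq (GRCm38.p6). Symbols came from a separate reference list of gene names by gene ID, and 53620 gene IDs had a symbol. Where 1 of 94 repeated symbols was in a list, the more abundant ID was kept. Shares, list counts, ranks and differences of log2(TPM + 1) were computed in Python 3 with pandas and SciPy, and the difference statistics were tested on simulated data with known changes. No test was run, since 1 group of 2 libraries gives no contrast.

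The gene lists, 77 in number, and the genes described were chosen with earlier results of these data known. Named were the 30 most abundant genes outside mitochondrially encoded, ribosomal and predicted genes, up to 8 members per list with those that define it, the 20 most abundant factors, up to 12 genes per direction of largest difference between the libraries with a mean of at least 10 TPM, and genes of the study's title. Alternatives changed the TPM limit, the total that TPM is scaled to, the pseudocount, the filter, the level class and the libraries used. Protein features were not examined.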

Additional observations from a re-analysis of the deposited data

How the results depend on the processing

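No paired analysis was possible because a single group was described and no groups were compared. Over 26 results and 136 alternative values, 106 stayed the same and 30 moved. The same meant within the spread of the libraries, within 1.5 times the count or, for promoter shares, within a binomial interval of the main share. That interval takes genes as independent, which they are not. Of the 500 most abundant genes, used as an alternative there, 79.4% had a window, under the minimum of 80%. Part of the 106 could not have moved. For shares by gene class, the value of a single library lies within the spread of the pair by construction. Setting the median difference to 0 likewise cannot change the SD of the difference. With at least 10 TPM in both libraries 6825 genes counted as expressed; using each library alone gave 13537 to 13580. Rescaling without mitochondrially encoded genes put ribosomal proteins at 17.4%, predicted symbols at 18.6% and the identity lists at 1.72% of TPM, the top 100 genes at 36.6% and the top 1000 at 70.5%. Without ribosomal proteins as well, predicted symbols were at 22.5%, matrix at 3.70%, identity at 2.08%, transcription factors at 1.63%, receptors at 1.45% and secreted factors at 2.35%, the top 100 genes at 33.2% and the top 1000 at 65.8%; these shares rise or drop by construction, since the total is smaller. The genes over 2-fold apart numbered 380 at a mean of at least 5 TPM (118 higher in replicate 2), 273 at 10 TPM (77 higher and 196 lower) and 8419 with no filter (4610 higher and 3809 lower), where the SD was 0.27. The count higher in replicate 2 was 326 without mitochondrially encoded and ribosomal genes (325 lower) and 107 without predicted symbols. The count lower was 193 when predicted genes were left out of the total too, an alternative chosen after seeing the data. The cause of these moves was not tested. At 5 TPM 14 epithelial, 8 macrophage and 18 Hox genes passed, and at 0.5 TPM 11 pluripotency genes passed. The planned comparison of protein features was not run.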

Other observations

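Genes with predicted symbols held some of the highest values, although they fall outside the rule for named genes and were chosen after their values were seen. Gm29216 stood at 13952 and 18995 TPM, Gm28661 at 13706 and 15695 TPM, Gm10925 at 11229 and 17441 TPM and Gm28437 at 10835 and 15604 TPM in replicates 1 and 2. All 4 were higher in replicate 2, as were the mitochondrially encoded genes in 27 of 34 expressed cases. Gm22133 stood at 12597 and 8619 TPM and was higher in replicate 1.

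Of all genes listed at 0 in 1 library, 3 reached 10 TPM in the other. Gm10260 was listed at 0 in replicate 1 and at 2445 TPM in replicate 2, Gm26619 at 1229.6 TPM in replicate 1 and at 0 in replicate 2, and H1fx, a linker histone gene, at 22.8 TPM in replicate 1 and at 0 in replicate 2. These values have no replicate check.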
